A study of Mus musculus with 4 samples.

Results

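Myofibroblast and TGF-beta response genes were followed across the 4 arrays of the series. They are 9 genes taken by symbol, with no threshold on a measured value, although earlier results of these data were known when the list was drawn up: Acta2, Tagln, Cnn1 and Myl9 of the contractile apparatus, Ctgf and Cyr61 of the matricellular CCN family, the ligands Tgfb1 and Tgfb2, and the matrix gene Tgfbi. The array carries 19 probes for these 9 genes, out of 45281 probes for 30874 genes. Of the 19 probes, 16 were detected on all 4 arrays, 1 (Acta2 at position 1) on some, and 2 (Cnn1 and one of the Tagln probes) on none.

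The study asked how Rb in its different phosphorylation states affects transcription. Murine embryonic fibroblasts (MEFs) of mixed FVB;129 background carried floxed Rb and were grown in serum. Parental MEFs received carrier solution without TAT-Cre and medium without virus, and kept endogenous Rb. Rb-deleted MEFs received TAT-Cre, a recombinase that enters cells as a protein, in 2 rounds of 1 hr spaced 3 hr apart, and medium without virus. The 2 remaining cultures received TAT-Cre in the same way together with a retrovirus, encoding HA-tagged wild type Rb (WT Rb-HA MEFs) or HA-tagged Rb that Cdks cannot phosphorylate (ΔCdk Rb-HA MEFs). No array had an empty retrovirus, so infection and the Rb protein it delivers cannot be told apart. No array had TAT-Cre without deletion of Rb either. In comparisons to parental MEFs, exposure to TAT-Cre and loss of endogenous Rb therefore cannot be told apart. According to the study's methods the cultures were released from contact inhibition and then treated for a few hours with a sub-lethal dose of doxorubicin, a DNA-damaging topoisomerase II inhibitor, which the labels do not mention. Each condition is 1 array, so differences rest on single cultures and none could be tested. Levels are mixtures over all cells of a culture, so fewer cells of a type and less RNA per cell cannot be told apart.

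Myofibroblasts are fibroblasts that assemble contractile actin filaments and deposit matrix, as in a healing wound. TGF-beta is secreted in a latent form, is released from binding proteins in the matrix, and signals through a pair of receptor kinases to Smad transcription factors. Contractile genes are also driven by SRF, which reads the state of the actin cytoskeleton and binds the CArG box, while Ctgf and Cyr61 respond to YAP with TEAD factors, to SRF and to serum. Cultured MEFs are known to carry some of this program because they grow on stiff plastic in serum.

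Probes of 50 bases report these genes, and the sequences of those on which the differences below turn are given here in the strand of the transcript, as deposited. Position numbers are the probe starts as deposited, and serve here as names for the probes. The Acta2 numbers 236 and 238 differ by more than the offset between their sequences below, so numbers may refer to different source sequences. The order of probes along a transcript was not checked. The pair for Acta2 is shown because both probes read nearly the same bases, with the 49 bases they share in capitals, so they are not independent measurements.
Acta2 236: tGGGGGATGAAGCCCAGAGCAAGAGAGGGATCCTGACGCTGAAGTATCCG
Acta2 238: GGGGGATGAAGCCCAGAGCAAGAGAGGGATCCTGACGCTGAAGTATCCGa
Probes of Myl9 share no run longer than 8 bases and give separate readings of that gene.
Myl9 264: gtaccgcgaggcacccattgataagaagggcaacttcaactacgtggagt
Myl9 374: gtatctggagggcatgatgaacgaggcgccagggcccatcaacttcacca
Tgfb1 has a single probe, and the Cyr61 probe shown is the one whose direction differs from the other probes of its gene.
Tgfb1 1894: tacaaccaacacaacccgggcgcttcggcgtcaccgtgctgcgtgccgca
Cyr61 691: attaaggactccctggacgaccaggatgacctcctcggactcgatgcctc

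Values below are of 2 kinds. The intensity is the deposited average over the beads of a probe on a linear scale, without normalization, given with its standard error over beads. The log2 ratio compares 2 arrays after background correction and quantile normalization, with the bead errors of both arrays combined in parentheses. A bead error describes how precisely a single array was read, and says nothing of how cultures vary. Detection means a detection p-value below 0.01. A gene was read by its brightest detected probe, and counted as higher or lower past the 1.6-fold filter of the study, a log2 ratio of 0.68. This left 8 of the 9 members, among 12616 genes analysed.

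In depth the 4 arrays were alike, with mean intensities of 336 to 346 and 15950 to 16740 probes detected. The deleted gene, Rb1 on chromosome 14, had an intensity of 543 at its brighter probe on the parental array. That probe was at 160.5 after deletion alone, 181 with WT Rb-HA and 170.1 with ΔCdk Rb-HA, as the TAT-Cre labels state. Whether it reads the Rb-HA transcript of the retrovirus was not tested. The study reports ectopic Rb protein at physiologic levels in the infected cultures. All 11 fibroblast markers on the array, among them Col1a1, Pdgfra and Vim, were detected on every array. Of 8 smooth muscle markers 3 were detected on all arrays, Actg2 at intensities of 2682 to 3712, Smtn at 553 to 882 and Des at 411 to 514. Myh11, Lmod1 and Kcnmb1 were dim and detected on only some arrays, and Cnn1 and Synpo2 on none. Of 8 endothelial markers 6 were detected on no array, Pecam1, Cdh5 and Kdr among them. Of 8 epithelial markers 5 were detected, 4 of them on all arrays, with summed intensities of 361 to 437. All 5 were below 0 for ΔCdk Rb-HA over WT Rb-HA, with a median log2 ratio of -0.40. Of 8 skeletal and cardiac muscle markers 3 were detected, Des and Acta1 on all arrays. Leukocyte markers moved with TAT-Cre: the summed intensity of the 11 detected of 14 was 10821 on the parental array and 5274 to 6588 on the 3 TAT-Cre arrays. The leukocyte markers Emr1, Laptm5, Csf1r and Cd68 were detected on all arrays and were lower on each TAT-Cre array. Emr1 was at 773 in parental MEFs and at 247, 203 and 198 in Rb-deleted, WT Rb-HA and then ΔCdk Rb-HA MEFs. Cd53 was the exception in ΔCdk Rb-HA MEFs, at 266 compared to 218 in parental MEFs. Ptprc, Fcer1g and Itgam were detected on no array. Whether this affects the comparisons to parental MEFs given below was not tested.

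Past the 1.6-fold filter stood only 1 member in only 1 pair of arrays. Tgfb1 was 1.65-fold lower in ΔCdk Rb-HA MEFs than in Rb-deleted MEFs, a pair in which 4.26% of all genes passed in either direction and 1.95% were lower. In the other pairs no member passed, against 5.12% of genes for Rb-deleted over parental MEFs, 3.34% for WT Rb-HA over parental, 5.87% for ΔCdk Rb-HA over parental, 1.02% for WT Rb-HA over Rb-deleted and 1.85% for ΔCdk Rb-HA over WT Rb-HA. With 8 genes, 0 or 1 beyond the filter is near these shares. Just inside the filter was Tgfb1 at -0.72, and just outside was Tgfb2, at -0.67 in Rb-deleted over parental MEFs. The median range over the 4 arrays was 0.46 on the log2 scale for the members and 0.36 for all genes analysed.

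**Figure D1:**
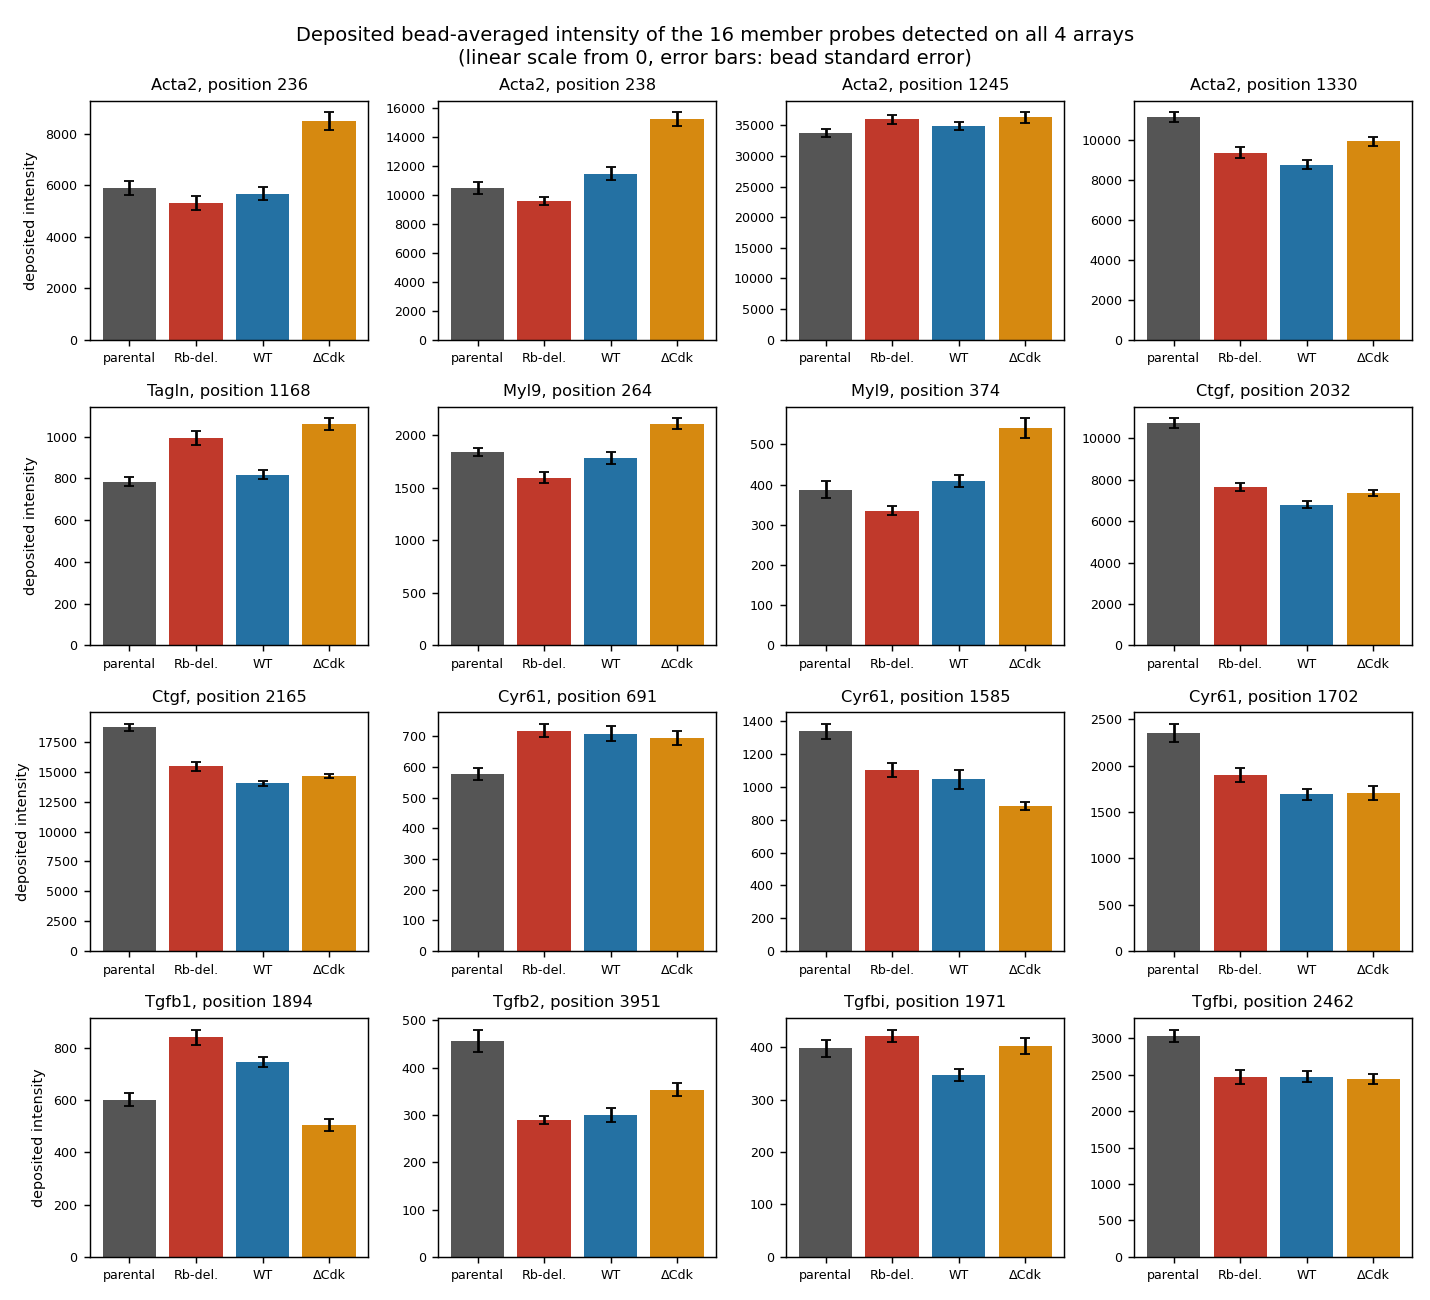
Deposited intensity, on linear axes from 0, of the 16 member probes detected on all 4 arrays. Each bar is 1 array and the error bars are bead standard errors. Both Myl9 probes and the Acta2 probes at 236 and 238 are highest with ΔCdk Rb-HA, Ctgf is highest in parental MEFs, and Tgfb1 is highest in Rb-deleted and lowest in ΔCdk Rb-HA MEFs.

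Ligand genes come first in the pathway, and the ligands Tgfb1 and Tgfb2 differed in pattern. Tgfb1, on chromosome 7, had an intensity of 602 (bead standard error 24.2) in parental and 839.8 (30.6) in Rb-deleted MEFs, compared to 745 (18.5) with WT Rb-HA and 503 (22.9) with ΔCdk Rb-HA. Rb-deleted and WT Rb-HA MEFs were thus above parental MEFs, and ΔCdk Rb-HA MEFs were below all others. Log2 ratios to parental were 0.54 (0.09) in Rb-deleted, 0.37 (0.07) in WT Rb-HA and -0.18 (0.09) in ΔCdk Rb-HA MEFs. Directly compared, ΔCdk Rb-HA was at -0.72 (0.09) over Rb-deleted and at -0.55 (0.08) over WT Rb-HA. Only 3.52% and 3.92% of all genes had larger absolute ratios in these pairs. WT Rb-HA was at -0.17 (0.07) over Rb-deleted MEFs, a difference exceeded by 38.9% of genes. The product of Tgfb1 is the isoform best known for driving the myofibroblast program.

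Tgfb2, which encodes another TGF-beta isoform, lies on chromosome 1 and was highest in parental MEFs. Its intensity was 458 (23.4) there, 289 (8.31) in Rb-deleted, 299.6 (14.8) in WT Rb-HA and 353 (14.0) in ΔCdk Rb-HA MEFs. Log2 ratios to parental were -0.67 (0.09), -0.60 (0.11) and -0.32 (0.10) on the TAT-Cre arrays in the same order. All 3 lay below parental by more than 2 bead standard errors, none past the filter. Rb-deleted and WT Rb-HA MEFs could not be separated at this precision, with a log2 ratio of 0.06 (0.09). ΔCdk Rb-HA stood higher than Rb-deleted by 0.35 (0.08) and than WT Rb-HA by 0.29 (0.10). The summed leukocyte markers were also lower on all 3 TAT-Cre arrays, and their part in the lower Tgfb2 was not tested.

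The 3 genes most like Tgfb1 over the 4 arrays, by the root mean square difference of centred log2 values among 10837 genes detected on all of them, were Fam168b (0.020), Tnxb (0.036) and Lrrn4cl (0.037). Tnxb encodes the matrix glycoprotein tenascin-X. In ΔCdk Rb-HA over Rb-deleted MEFs these 3 were at -0.77, -0.66 and -0.62 on the log2 scale. Over 4 points such likeness is a description only.

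**Figure D2:**
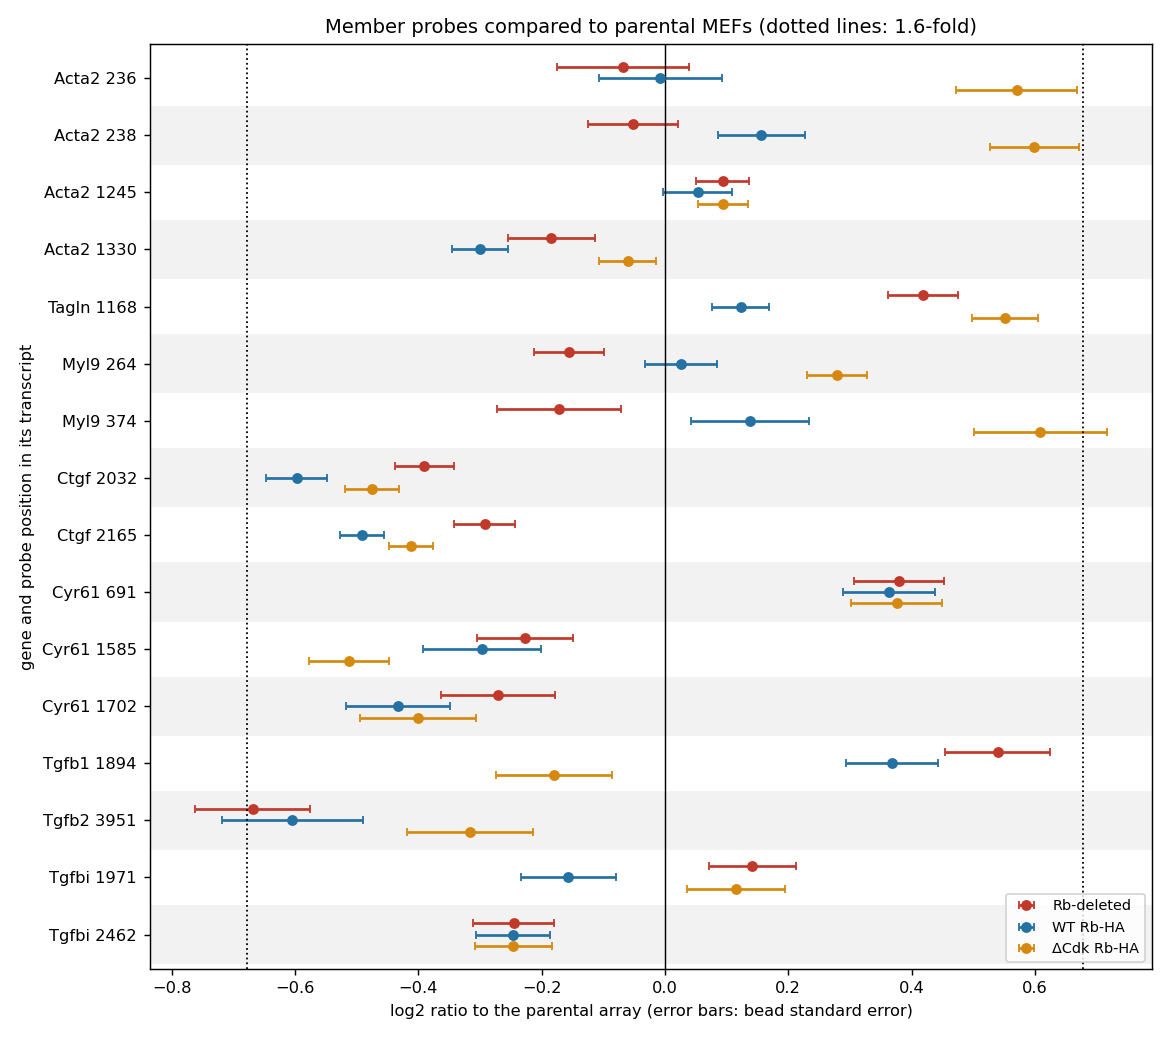
Log2 ratio to the parental array, on the horizontal axis, of the 16 member probes detected on all 4 arrays, in Rb-deleted (red), WT Rb-HA (blue) and ΔCdk Rb-HA (orange) MEFs. Error bars are bead standard errors of both arrays, dotted lines mark 1.6-fold, and probes of 1 gene can be compared row by row: no point passes the dotted lines, and Cyr61 at 691 lies on the opposite side of 0 from Cyr61 at 1585 and 1702.

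Contractile genes were read by 7 probes detected on all 4 arrays. Of these, 5 were highest in ΔCdk Rb-HA MEFs by normalized value, while none of the other 9 member probes was. The share of all probes that were highest on that array was not counted, so these counts have no baseline. Another, Acta2 at 1245, was tied there with Rb-deleted MEFs after normalization. The 7 probes are not independent, because 4 of them read Acta2 and those at 236 and 238 share 49 bases. Other markers moved in the same arrays. For ΔCdk Rb-HA over Rb-deleted MEFs the 6 smooth muscle markers detected on any array had a median log2 ratio of 0.37, with 4 above 0, Des at 0.38 (0.05) among them, and 2 below, Smtn at -0.65 (0.07) among them. Of the 11 fibroblast markers 8 were below 0 in that pair, and Pdgfrb was at -0.95 (0.10). Their median was -0.18, compared to -0.03 for all genes. Over WT Rb-HA 10 of the 11 were below 0, with a median of -0.22 compared to -0.01 for all genes. The part of such cell types in the contractile readings was not tested. Myl9, the regulatory light chain of smooth muscle and nonmuscle myosin II, had intensities at position 264 of 1837 (38.8) in parental, 1594 (53.2) in Rb-deleted, 1779 (55.8) in WT Rb-HA and 2107 (53.0) in ΔCdk Rb-HA MEFs. At position 374 the intensities were 387 (21.2), 335 (11.9), 409 (14.5) and 541 (24.1) in the same order. On both probes ΔCdk Rb-HA was highest and Rb-deleted lowest. For ΔCdk Rb-HA over Rb-deleted MEFs the log2 ratio was 0.43 (0.06) at 264 and 0.78 (0.09) at 374. The latter is past 1.6-fold, yet the brighter probe that stands for the gene is not. Over WT Rb-HA the ΔCdk Rb-HA array was higher by 0.25 (0.06) and 0.47 (0.09). Rb-deleted MEFs were at -0.16 (0.06) and -0.17 (0.10) compared to parental.

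Tagln encodes transgelin (SM22), an actin-binding protein and an early marker of smooth muscle and myofibroblasts. At position 1168 its intensity was 784 (21.0) in parental, 993 (31.5) in Rb-deleted, 818 (20.8) in WT Rb-HA and 1060.3 (27.9) in ΔCdk Rb-HA MEFs. Parental and WT Rb-HA MEFs formed the lower pair, Rb-deleted and ΔCdk Rb-HA MEFs the higher. Log2 ratios to parental were 0.42 (0.06) in Rb-deleted, 0.12 (0.05) in WT Rb-HA and 0.55 (0.05) in ΔCdk Rb-HA MEFs. WT Rb-HA was lower than Rb-deleted MEFs, at -0.30 (0.06), and ΔCdk Rb-HA was higher than WT Rb-HA, at 0.43 (0.05). In the last pair 8.38% of all genes had a larger absolute ratio. Thus Tagln did not share the low Rb-deleted value of Myl9. The other Tagln probe, at position 2, was at background, with intensities of 29.4 to 33.6 and detection p-values of 0.916 to 1.

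Acta2, on chromosome 19, encodes smooth muscle alpha-actin, the defining protein of myofibroblasts, and its probes did not move together. At position 238 the intensity was 10483 (403) in parental, 9568 (269.7) in Rb-deleted, 11469 (434) in WT Rb-HA and 15223 (466) in ΔCdk Rb-HA MEFs. At 236 it was 5890.5 (266), 5319.8 (282), 5679 (261) and 8495 (345). These overlapping probes were highest in ΔCdk Rb-HA MEFs, with log2 ratios over Rb-deleted of 0.65 (0.08) at 238 and 0.64 (0.10) at 236, just under the filter. Over parental the ratios were 0.60 (0.07) and 0.57 (0.10).

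At 1330 and 1245 the picture for Acta2 was different. At 1330 the intensity was 11157 (235) in parental, 9376 (282) in Rb-deleted, 8778 (205) in WT Rb-HA and 9947 (219.6) in ΔCdk Rb-HA MEFs, so that parental was highest. There ΔCdk Rb-HA over Rb-deleted was 0.12 (0.07), and ΔCdk Rb-HA over parental was -0.06 (0.05). At 1245, the probe that stands for the gene, intensities were 33802 (632), 36009 (768), 34916 (640.3) and 36299.7 (826). That probe was among the brightest on the array, with only 0.0155% of probes brighter in parental MEFs and array maxima of 37759 to 41613, and its log2 ratios lay between -0.04 and 0.09 in all 6 pairs. Whether it was near the upper end of its range was not tested. At position 1 the intensity was 75.8 in parental, 67.8 in Rb-deleted and 71.1 in ΔCdk Rb-HA MEFs. With WT Rb-HA it was 53.9, and the probe was not detected there.

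Over its 4 probes detected on all arrays, Acta2 had log2 ratios of 0.00 to 0.65 for ΔCdk Rb-HA over Rb-deleted MEFs and of 0.04 to 0.58 for ΔCdk Rb-HA over WT Rb-HA. The coding sequences of actin genes are closely alike, and a probe within them may read more than 1 actin. Among actins chosen for mention after their values were seen, Acta1, of skeletal muscle, had intensities of 654 in parental, 483 in Rb-deleted, 692 in WT Rb-HA and 992 in ΔCdk Rb-HA MEFs, lowest and highest on the same arrays as the Acta2 probe at 238. Actg2, of enteric smooth muscle, had intensities of 2682, 2890.3, 2757 and 3712. Actb, a brighter actin, did not follow these, with 21253, 22896, 23388 and 23173 in the same order. Its log2 ratio for ΔCdk Rb-HA was 0.00 (0.04) over Rb-deleted MEFs and -0.02 (0.03) for WT Rb-HA over Rb-deleted MEFs. Whether these transcripts contribute to the Acta2 probes was not tested. Cnn1, encoding calponin, an actin-binding inhibitor of myosin ATPase and a later marker of smooth muscle, was not above background on any array, with intensities of 40.3 to 49.0 and detection p-values of 0.0534 to 0.382.

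**Figure D3:**
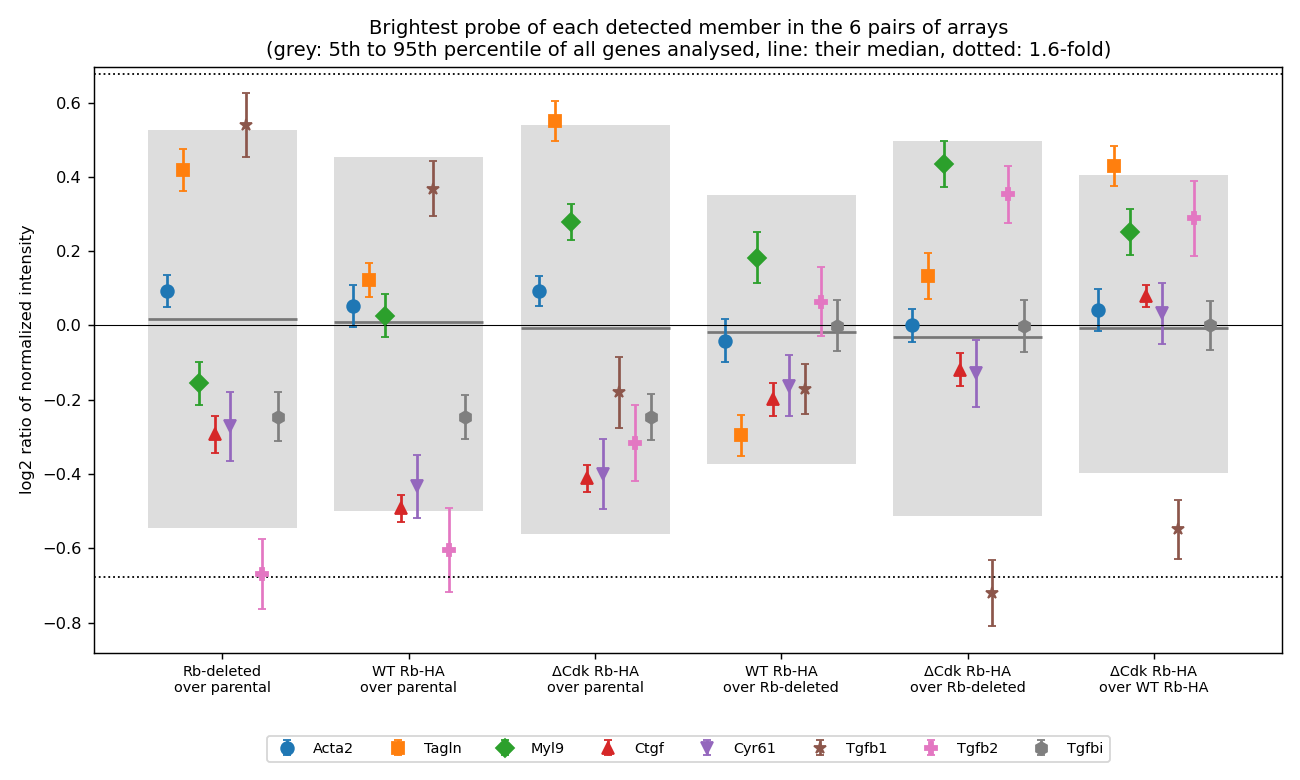
Log2 ratio of normalized intensity, on the vertical axis, of the brightest probe of the 8 detected members in the 6 pairs of arrays. Error bars are bead standard errors, grey bars span the 5th to 95th percentile of the 12616 genes analysed with their median as a line, and dotted lines mark 1.6-fold. Only Tgfb1 in ΔCdk Rb-HA over Rb-deleted MEFs, at -0.72, lies beyond a dotted line.

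Ctgf and Cyr61, secreted CCN proteins that bind integrins and matrix, were lower on the TAT-Cre arrays than on the parental array by 4 of their 5 probes. Ctgf, on chromosome 10, had intensities at position 2165 of 18723 (283) in parental, 15459 (389) in Rb-deleted, 14019 (219.5) in WT Rb-HA and 14669 (175) in ΔCdk Rb-HA MEFs. At 2032 they were 10750.2 (229), 7641 (188), 6801 (168) and 7368 (155), in the same order. Parental was highest and WT Rb-HA lowest on both probes. Log2 ratios to parental at 2165 were -0.29 (0.05), -0.49 (0.04) and -0.41 (0.04), and at 2032 they were -0.39 (0.05), -0.60 (0.05) and -0.48 (0.04). WT Rb-HA was lower than Rb-deleted MEFs by both probes, at -0.20 (0.04) and -0.21 (0.06).

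Cyr61, on chromosome 3, had intensities at position 1702 of 2350 (99.7) in parental, 1899 (73.1) in Rb-deleted, 1688 (59.6) in WT Rb-HA and 1705 (78.3) in ΔCdk Rb-HA MEFs. At 1585 they were 1339 (45.0), 1104 (43.2), 1045 (58.5) and 886 (24.3). On both of these probes parental MEFs were highest. At 691, however, the parental value of 577 (20.7) was the lowest, compared to 719 (22.2), 708 (24.4) and 695 (24.1) in the other cultures. Log2 ratios to parental at 691 were 0.38 (0.07), 0.36 (0.07) and 0.38 (0.07), opposite in sign to the -0.27 (0.09), -0.43 (0.08) and -0.40 (0.09) at 1702. The direction of Cyr61 compared to parental MEFs therefore depends on the probe. Among the TAT-Cre arrays the probe at 691 showed ratios of -0.02 to 0.01, each within its bead error. Ctgf and the Cyr61 probes at 1585 and 1702 were lower on the TAT-Cre arrays, as was the summed level of leukocyte markers. The part of leukocytes in this was not tested.

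Tgfbi, a secreted matrix protein named for its induction by TGF-beta, lies on chromosome 13. At position 2462 its intensity was 3033 (88.1) in parental, 2466 (98.4) in Rb-deleted, 2472 (78.9) in WT Rb-HA and 2442 (69.0) in ΔCdk Rb-HA MEFs. The 3 TAT-Cre arrays were level with each other, with log2 ratios of -0.00 (0.07), -0.00 (0.07) and 0.00 (0.07) among them, and each was at -0.25 (0.07, 0.06 and 0.06) to parental. At 1971 the intensities were 398 (16.6), 422 (12.2), 347 (12.0) and 402 (15.4), so parental was not highest and WT Rb-HA was lowest. Log2 ratios to parental at 1971 were 0.14 (0.07), -0.16 (0.08) and 0.11 (0.08), so that only WT Rb-HA was below parental by both probes.

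Promoter sequence from RefSeq (GRCm38.p6) was found for 7 of the 9 members, and Tagln and Ctgf had no entry. In the 250 bases before each start, on both strands, a strict CArG box was found for 1 member, Myl9, compared to 1.47% of 32851 promoters. Strict means CC, then only A or T, then GG, so boxes with a mismatch were not searched for. The TEAD motif GGAATG was found for Acta2 and Cyr61, compared to 12.6% of promoters, and CAGAC, a short Smad-binding motif, for Acta2, Tgfb2 and Tgfbi, compared to 42.2%. The windows of 30 bases around the CArG box and TEAD matches are shown because these factors are the known regulators of the genes, with the match in capitals and each written in the strand of its gene.
Myl9, chr2:156775293-156775322, plus strand: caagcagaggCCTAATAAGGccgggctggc
Acta2, chr19:34255502-34255531, minus strand: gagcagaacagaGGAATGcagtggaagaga
Cyr61, chr3:145650071-145650100, minus strand: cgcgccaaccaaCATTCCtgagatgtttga
These matches describe sequence only. Myl9 and Acta2 at 236 and 238 were highest with ΔCdk Rb-HA, while Acta2 at 1330 was highest in parental MEFs. No Cyr61 probe was highest with ΔCdk Rb-HA. A link between these matches and the levels was not tested.

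Around the members, 102 other genes of TGF-beta signalling, TGF-beta induction, SRF and actin, and YAP with TEAD were on the array, and 88 of them were analysed. At least 1 pair of arrays put 11 of the 88, or 12.5%, past 1.6-fold, compared to 11.2% of all genes analysed. By list these were 2 of 19 Smad pathway genes, 5 of 25 TGF-beta induced transcripts, 1 of 29 SRF and actin genes and 3 of 16 YAP with TEAD and CCN genes. Of the Smad pathway list, 19 of 24 genes were detected. Ltbp4 and Thbs1 were its members past the filter. Ltbp4 encodes a latent TGF-beta binding protein of elastic fibres, and its intensity of 204.3 in parental, 313 in Rb-deleted, 238 in WT Rb-HA and 131 in ΔCdk Rb-HA MEFs ran in the order of Tgfb1. Its log2 ratio was 0.72 (0.09) for Rb-deleted over parental, -1.42 (0.09) for ΔCdk Rb-HA over Rb-deleted and -0.99 (0.10) for ΔCdk Rb-HA over WT Rb-HA. Thbs1, whose product thrombospondin can activate latent TGF-beta, was lowest in Rb-deleted and highest in ΔCdk Rb-HA MEFs, with 1845 in parental, 1381 in Rb-deleted, 1923 in WT Rb-HA and 2396 with ΔCdk Rb-HA. Its ratio for ΔCdk Rb-HA over Rb-deleted was 0.82 (0.07). The median of the 19 genes was -0.19 for Rb-deleted over parental, compared to 0.02 for all genes, and -0.10 for ΔCdk Rb-HA over Rb-deleted, compared to -0.03.

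Of the TGF-beta induced transcripts, 25 of 27 were detected. Only 1 of the 25 passed the filter in Rb-deleted over parental MEFs, Angptl4, a secreted lipase inhibitor, at -0.69 (0.09). In that pair 5.12% of all genes passed. There 19 of the 25 were below 0, with a median of -0.20 compared to 0.02 for all genes. In ΔCdk Rb-HA over parental MEFs 1 was higher and 3 were lower, in a pair where 5.87% of all genes passed. Higher was Tsc22d1, a leucine zipper factor, at 1.25 (0.05), with intensities of 574, 633, 858 and 1249.8 from parental to ΔCdk Rb-HA. Lower were Postn, encoding periostin, at -1.26 (0.15), Zeb1, an epithelial-mesenchymal transition factor, at -0.71 (0.05), and Itga5, the fibronectin receptor subunit, at -0.70 (0.05). Against WT Rb-HA, Postn was at -0.96 (0.17) in ΔCdk Rb-HA MEFs. The median in ΔCdk Rb-HA over parental was -0.10 compared to -0.01 for all genes, with 10 genes above and 15 below 0. For ΔCdk Rb-HA over Rb-deleted MEFs 2 were higher and 1 was lower, where 4.26% of all genes passed. Higher were Tsc22d1 at 1.05 (0.05) and Angptl4 at 0.71 (0.09), and lower was Postn at -0.89 (0.14). The median there was 0.02, with 13 above and 11 below 0. Angptl4 was also higher in WT Rb-HA than in Rb-deleted MEFs, at 0.59 (0.08).

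Of the SRF and actin cytoskeleton genes 29 of 31 were detected, and 1 passed in any pair. It was Csrp2, a LIM protein of smooth muscle, at 0.71 (0.04) in Rb-deleted over parental MEFs. In that pair 21 of the 29 were above 0, with a median of 0.12 compared to 0.02 for all genes. For WT Rb-HA over Rb-deleted MEFs 24 of the 29 were below 0, with a median of -0.10 compared to -0.02 for all genes. For ΔCdk Rb-HA over Rb-deleted MEFs none passed, with 8 above and 19 below 0. The median was -0.09, compared to -0.03 for all genes. By brightest probe Acta2 was there at 0.00 (0.04), Tagln at 0.13 (0.06) and Myl9 at 0.43 (0.06). For ΔCdk Rb-HA over WT Rb-HA the list had 17 above and 12 below 0, with a median of 0.02 compared to -0.01 for all genes. In that pair the brightest probe of Acta2 was at 0.04 (0.06), of Tagln at 0.43 (0.05) and of Myl9 at 0.25 (0.06). Of the YAP with TEAD and CCN list, 16 of 21 were detected. In ΔCdk Rb-HA over parental MEFs 1 gene passed upward and 1 downward, compared to 5.87% of all genes in either direction. Ankrd1, a muscle ankyrin repeat protein and YAP target, was at 0.77 (0.09), with intensities of 143, 141, 141 and 219.4. Nov, the CCN family member related to Ctgf and Cyr61, was at -1.03 (0.10), with 462, 358, 422 and 227 from parental to ΔCdk Rb-HA. Nt5e, the ectonucleotidase CD73, was at 0.89 (0.09) for ΔCdk Rb-HA over Rb-deleted MEFs.

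**Figure D4:**
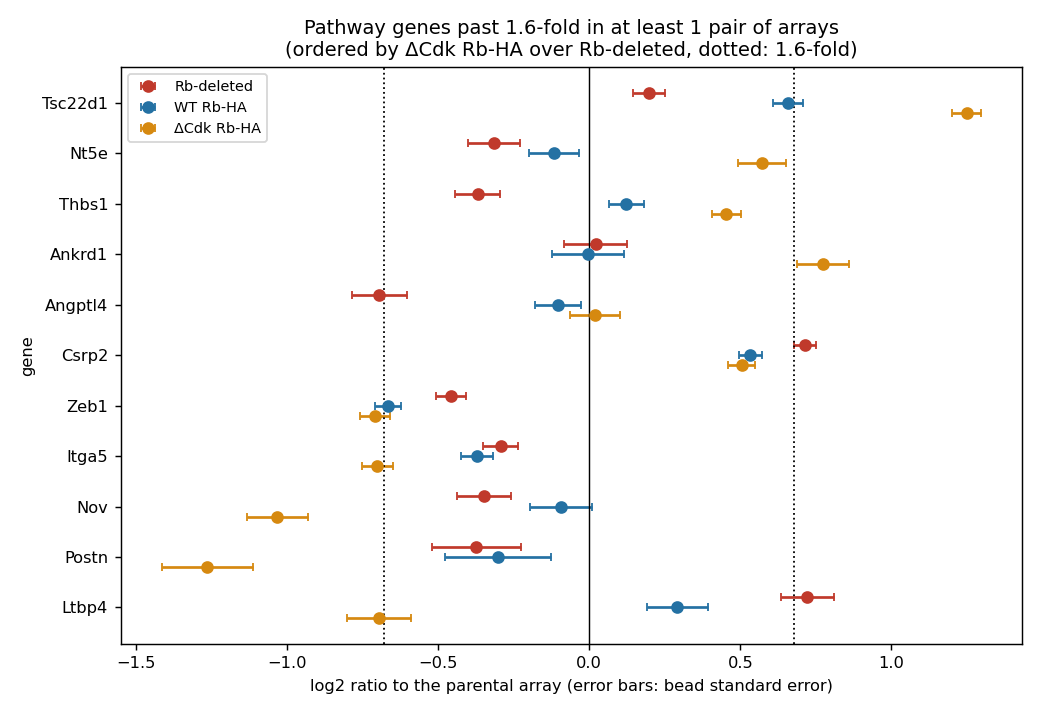
Log2 ratio to the parental array, on the horizontal axis, of the 11 pathway genes past 1.6-fold in at least 1 of the 6 pairs, in Rb-deleted (red), WT Rb-HA (blue) and ΔCdk Rb-HA (orange) MEFs. Error bars are bead standard errors and dotted lines mark 1.6-fold. Tsc22d1 and Ankrd1 lie above the line with ΔCdk Rb-HA, Postn and Nov well below it, and Ltbp4 is above it in Rb-deleted and below it in ΔCdk Rb-HA MEFs.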

How the data were processed

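Total RNA of 4 MEF cultures was labelled with biotin and hybridised to Illumina MouseWG-6 v2.0 BeadChips, 1 array per group. The authors deposited the intensity of each probe, averaged over beads and not normalized, with its bead standard error, bead number and detection p-value. The deposited detection p-value moves in steps of 1 in 936. The software that made the table is not given in the sources used here, and 0 sample columns were left unused. From these, background was corrected with normexp in limma 3.58.1 (R 4.3.3), its parameters inferred from the detection p-values, with an offset of 16, followed by quantile normalization and log2. Probes were analysed if the detection p-value was below 0.01 on at least 1 array (17746 probes, 12616 genes). The number of arrays limits the precision.

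Bead errors were carried through each array's mapping to normalized values. Python 3.11.15 with numpy 2.4.6 and pandas 2.3.3 did the rest. Symbols turned into dates (40 probes) were restored for 34 from the Entrez number. All member probes were named, the list genes past 1.6-fold in any pair, and the 3 genes nearest in pattern to a member past it. Members and lists were chosen with earlier results of these data known. Alternatives changed background correction, normalization, detection filter, probes per gene, threshold and bead error. The calculation was also run on simulated arrays that carried bead noise but no variation between cultures. That run therefore says nothing of how cultures vary. Genome positions in the table are of mixed builds and not given.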

Additional observations from a re-analysis of the deposited data

How the results depend on the processing

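The counts of members past 1.6-fold rest on values close to the filter. For Rb-deleted over parental MEFs the count went from 0 to 1, Tgfb2, with median scaling in place of quantile normalization, with no normalization between arrays, and at 1.5-fold. For WT Rb-HA over parental MEFs it went from 0 to 1, again Tgfb2, at 1.5-fold. For ΔCdk Rb-HA over Rb-deleted MEFs it went from 1 to 0 at 2-fold and when 2 bead standard errors beyond the filter were required. All other counts kept their values under the 11 alternatives tried. Of 96 log2 ratios of the 16 probes detected on every array, all 96 moved by less than their bead error without background correction or with an offset of 50, 88 did with median scaling and 77 without normalization between arrays. The largest move was 0.11, and signs turned only for ratios of at most 0.03 in size. Reading a gene by the mean of its detected probes changed no count. No paired analysis was possible because each group has 1 array. Depth on arrays is signal over background, so no change in Cnn1 was measurable.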
